A study of Homo sapiens with 12 samples.

Results

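The genes described here are 60 protein-coding genes that lie in the distal part of the long arm of human chromosome 8, from *OXR1* (start 106270144) to *RECQL4* (end 144517845, GRCh38). They were chosen by a rule that used measured values of these samples. Genes of this interval were listed because lower mRNA levels had been seen in cells without *miR-34a* and *miR-34b/c* (*miR-34a/b/c-KO*, here *KO*), with DMSO and with 5-FU, relative to wild-type (*WT*) cells. The difference between the genotypes is therefore given as a description, with no test. A gene was tested if any library gave it 20 or more counts, and 59 of the 60 members met this, among 16123 genes tested of 60580 listed. The exception was *TRPS1*, which had at most 1 count in any library. Another 94 tested genes start in the same interval.

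The libraries were RNA-seq libraries of HCT116, an established human colorectal cancer cell line with functional p53. *WT* cells were treated with DMSO (n = 3) or with 4 µM 5-FU for 48 h, and *KO* cells, made with CRISPR/Cas9, received the same treatments (n = 3 each). Both genotypes were described in the study's methods as single-cell-derived clones, the *WT* clones having received the Cas9 plasmid without a guide. Which clone gave which library is not stated in the sources used here, so the spread between libraries may be technical or clonal, and the p-values measure no more than that spread. Of the 3 files labelled as *WT* cells with 5-FU, that of replicate 1 was identical to that of *WT* DMSO replicate 3 in all 60580 genes and was left out, which leaves n = 2. The 11 libraries held 22831415 to 39064210 counts. Levels are given as CPM, counts scaled for library size with upper-quartile factors.

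The members do not form a pathway. They encode parts of machines that every dividing cell uses, such as the translation initiation factor eIF3, cohesin, Mediator, the ER membrane protein complex and mitochondrial respiratory complex III, next to proteins of cell junctions, vesicles and signalling. What they share by definition is their neighbourhood. 5-FU is a pyrimidine analog that blocks thymidylate synthase and is built into RNA and DNA, which activates p53. *miR-34a* and *miR-34b/c* are induced by p53, and a microRNA of this family lowers mRNAs whose 3' untranslated region pairs with its seed, bases 2 to 8 of the mature strand.

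The seeds of *miR-34a* and *miR-34b*, both among the deleted microRNAs, are shown because they define the sites that an mRNA would need for direct pairing. Mature sequences were taken from RefSeq (GRCh38.p14), with the seed in capitals. hsa-miR-34a-5p lies on chromosome 1 (9151735 to 9151756, minus strand) and hsa-miR-34b-5p on chromosome 11 (111512950 to 111512972, plus strand). *miR-34c*, also deleted, is not shown.
hsa-miR-34a-5p: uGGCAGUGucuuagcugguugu
hsa-miR-34b-5p: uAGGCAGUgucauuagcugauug
The 7-base match to the *miR-34a* seed, CACTGCC, was searched on the transcript strand in the longest annotated 3' untranslated region of each gene. It was found in 9 of 59 members (15.3%) and in 2852 of 13101 coding genes tested (21.8%). The members that hold it are *AGO2*, *ASAP1*, *CHRAC1*, *DGAT1*, *MAF1*, *PUF60*, *ST3GAL1*, *TBC1D31* and *ZHX2*. Their median log2 fold change between genotypes in DMSO was −0.67, against −0.70 for the members without it. A match is a description of letters and was not tested as a site. Matches to the *miR-34b* seed were not searched.

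The host transcript of *miR-34a*, *MIR34AHG*, was measured in every library, at 4.46 to 5.36 CPM in *WT* and 21.9 to 22.5 CPM in *KO* cells with DMSO. With 5-FU it was at 15.4 to 17.0 and 62.7 to 65.8 CPM. The hairpins *MIR34A*, *MIR34B* and *MIR34C* had 0 counts in all libraries, so these counts do not check the deletion itself. *CDKN1A*, the p53 target that encodes the cell cycle inhibitor p21, was at 166 to 168 CPM in *WT* cells with DMSO and at 1977 to 2179 CPM with 5-FU. In *KO* cells it was at 453 to 488 and 2431 to 2534 CPM. *MDM2*, which encodes the ubiquitin ligase of p53, was at 134 to 145.5 and 1005 to 1232 CPM in *WT* cells and at 189 to 197 and 794 to 822 CPM in *KO* cells. The epithelial markers *EPCAM*, *KRT8*, *KRT18*, *KRT19* and *CDH1* were expressed in all libraries, while *CEACAM5* did not exceed 2 counts and *VIL1* did not exceed 2.21 CPM. Of 8 markers of blood, fibroblast and endothelial cells, 3 reached 20 counts, and *PTPRC*, which marks blood cells, had at most 1 count. The summed level of these 8 was 23.8 to 28.4 CPM in *WT* and 47.8 to 52.0 CPM in *KO* cells with DMSO, and 56.1 to 66.9 and 72.1 to 73.4 CPM with 5-FU. *COL1A1* contributed most of it (21.7 to 70.5 CPM). The summed level of the 7 epithelial markers was 5246 to 5532 CPM in *WT* and 5445 to 5643 CPM in *KO* cells with DMSO, and 11099 to 12148 and 8531 to 9006 CPM with 5-FU. The part of either list in the results was not tested.

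In *KO* cells the members were lower as a block. The median log2 fold change against *WT* cells was −0.69 with DMSO and −0.69 with 5-FU, which corresponds to 0.620 and 0.622 of the *WT* level, while the medians of all genes tested were 0.03 and −0.05. In bulk RNA, fewer cells that express a gene and less RNA per cell cannot be told apart. With DMSO, 38 members were at least 1.5-fold lower (background 6.77% of all genes tested), and with 5-FU 39 were (background 13.5%). The 3 libraries of *KO* cells lay below all *WT* libraries for 56 members with DMSO (background 27.4%) and for 54 with 5-FU (background 35.1%). Because the rule used these differences, nothing is read from the counts.

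With DMSO, 31 members had a log2 fold change between −1 and −0.5, 16 lay between −0.5 and 0, and 10 were at −1 or below. With 5-FU the numbers were 33, 11 and 12, and 3 members were above 0. The middle 50% of the members fell between −0.91 and −0.41 with DMSO and between −0.91 and −0.52 with 5-FU, and the middle 50% of all genes tested between −0.20 and 0.31 and between −0.34 and 0.24. The spread of the members was thus as wide as that of all genes with DMSO, around a lower centre.

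All 6 *KO* libraries showed the same shift. Against the mean of the *WT* libraries with DMSO, the median of the 59 members was −0.72, −0.71 and −0.66 in the *KO* libraries with DMSO and −0.84, −0.81 and −0.82 in those with 5-FU. In the *WT* libraries with 5-FU it was −0.12 and −0.13. The SD of a member between the replicates of a group had a median of 0.06 on the log2 scale in *WT* cells and 0.06 in *KO* cells with DMSO, 0.05 in *KO* cells with 5-FU and 0.16 in the pair of *WT* libraries with 5-FU, which were the least alike. The fit takes the spread of a gene as equal in all groups. SEs and FDRs of comparisons with that pair, the interaction included, may therefore be too small.

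*LY6K* (chromosome 8, 142700111 to 142705127, plus strand), a GPI-anchored surface protein of the LY6 family found mainly in testis, stood furthest apart with DMSO. It was at 1.01, 1.63 and 1.04 CPM in *WT* cells with DMSO, from 28 to 37 counts, and at 0 counts in all 3 *KO* libraries. Against a floor of 3 counts per library it was at least 10.5-fold lower. *MAL2* (119165034 to 119245673, plus strand), which encodes a membrane protein of transcytosis in polarized epithelial cells, was at 361, 377 and 372 CPM in *WT* and at 76.7, 77.5 and 74.7 CPM in *KO* cells with DMSO (log2 fold change −2.28, SE 0.06). With 5-FU it was at 400.1 and 476 CPM and at 53.9, 51.5 and 49.2 CPM (−3.09, SE 0.07). No *KO* library of *MAL2* came near a *WT* library.

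*ASAP1* (130052104 to 130443674, minus strand), a GTPase-activating protein for ARF proteins at focal adhesions, was at 83.7, 81.6 and 85.2 CPM in *WT* and at 33.8, 31.6 and 30.6 CPM in *KO* cells with DMSO (−1.39, SE 0.06). *NDRG1* (133237175 to 133302022, minus strand), a stress- and hypoxia-responsive gene, was at 308, 324 and 274 CPM against 118, 117 and 121 CPM (−1.35, SE 0.07). Both genes kept the groups apart with 5-FU, at −1.11 (SE 0.06) and −1.33 (SE 0.07).

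*MED30* (117520713 to 117540262, plus strand), a subunit of Mediator, was at 19.5, 23.5 and 20.9 CPM in *WT* and at 8.40, 8.09 and 9.08 CPM in *KO* cells with DMSO (−1.32, SE 0.09). *DSCC1* (119833976 to 119855894, minus strand), part of the clamp loader that supports sister chromatid cohesion, was at 68.2, 72.8 and 68.0 CPM against 29.4, 29.9 and 30.1 CPM (−1.22, SE 0.07). With 5-FU *MED30* remained lower (−1.23, SE 0.11), whereas *DSCC1* was at 35.8 and 42.0 CPM in *WT* and 40.7, 40.2 and 40.4 CPM in *KO* cells, which overlap (0.06, SE 0.07).

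At the other end, *SNTB1* (120535745 to 120813273, minus strand), the adaptor beta-1-syntrophin of the dystrophin complex, was higher in *KO* cells. With DMSO it was at 4.01, 4.54 and 4.69 CPM in *WT* and at 16.9, 15.1 and 14.0 CPM in *KO* cells (log2 fold change 1.79, SE 0.10), and with 5-FU the difference was 0.62 (SE 0.10). *ZHX1*, a zinc finger and homeobox repressor, was at 26.7, 30.8 and 28.6 CPM against 29.8, 28.6 and 31.0 CPM with DMSO (0.05, SE 0.08), and its groups overlapped under both treatments. *KIFC2*, a kinesin of neurons, was at 81.0, 76.9 and 79.6 CPM against 70.8, 78.8 and 71.8 CPM (−0.10, SE 0.07), which also overlap. *PLEC*, the cytoskeletal linker plectin, was at 519.8, 515 and 616 CPM against 473, 499.5 and 447 CPM (−0.22, SE 0.07), with all *KO* libraries below the *WT* libraries.

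By role, the members of each group lay on the same side with few exceptions. The 5 genes of chromosome maintenance, *RAD21* of cohesin, *DSCC1*, *NSMCE2* of the SMC5/6 complex, the helicase *RECQL4* and the mitochondrial topoisomerase *TOP1MT*, had a median of −0.98 with DMSO, and each was at least 1.5-fold lower. With 5-FU their median was −0.48 and 2 were at least 1.5-fold lower. The 6 genes of translation and ribosomes, *EIF3E*, *EIF3H*, *EEF1D*, *MRPL13*, *UTP23* and *TRMT12*, had medians of −0.79 and −0.79. The 4 mitochondrial and metabolic genes, *CYC1*, *NAPRT*, *TMEM65* and *OXR1*, lay within −0.73 to −0.68 with DMSO, the narrowest range of any role.

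The 9 tested regulators of transcription and chromatin had medians of −0.59 with DMSO and −0.54 with 5-FU. They include *HSF1*, the heat shock factor (−0.35 with DMSO, −0.54 with 5-FU), and *MAF1*, a repressor of RNA polymerase III (−0.59 and −0.56). The 3 genes of RNA processing and silencing were *AGO2*, the Argonaute that cleaves mRNAs guided by small RNAs (−0.97 and −0.67), the splicing factor *PUF60* (−0.67 and −0.78) and the 3' end processing factor *CPSF1* (−0.42 and −0.33). *AGO2*, the effector that microRNAs work through, was at 185, 171 and 192 CPM in *WT* and at 100.3, 95.5 and 84.3 CPM in *KO* cells with DMSO.

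The 15 genes of adhesion, cytoskeleton and trafficking spread most widely among the larger roles, with a median of −0.67 with DMSO and −0.83 with 5-FU and a range from *MAL2* to *SNTB1*. *PTK2*, the focal adhesion kinase, was at −1.18 and −1.23, and *SCRIB*, a determinant of cell polarity, at −0.64 and −0.65. The 5 genes of signalling and protein turnover had medians of −0.60 and −0.83, and among them *TRIB1*, a pseudokinase scaffold for ubiquitin ligase, was at −1.03 and −1.47. The 6 enzymes of the ER, glycans and lipids had medians of −0.48 and −0.70. *DGAT1*, which catalyzes the last step of triglyceride synthesis, was at −0.69 and −0.56, and *EXT1*, a heparan sulfate polymerase, at −0.35 and −0.89. Beside *LY6K*, the surface and immune group held *LY6E* (−0.54 and −0.73) and *GSDMD*, the pore-forming effector of pyroptosis (−0.35 and −0.23). The remaining 3 genes, *NUDCD1*, *EBAG9* and *TATDN1*, were at −0.99, −0.38 and −0.90 with DMSO.

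Along the chromosome the lower levels did not begin at the limit of the rule. In consecutive bins of 10 Mb from the proximal limit of the rule, the members had medians of −0.70 (n = 7), −0.74 (n = 25), −1.01 (n = 4) and −0.66 (n = 23) with DMSO, and of −0.80, −0.58, −0.91 and −0.78 with 5-FU. The 94 tested genes of the interval that are no members had medians of −0.49 and −0.82. Of them, 86 with DMSO and 93 with 5-FU were below 0 (backgrounds 46.9% and 54.4% of all genes tested). The most proximal members were *OXR1*, an oxidation resistance gene (start 106270144, −0.70, SE 0.09 with DMSO), and *EIF3E* (−0.90, SE 0.06). Just outside, *LRP12* (104489231 to 104589258), a receptor of the LDL receptor family, was at 0.35 (SE 0.10) and *DCAF13* (103414714 to 103443453), a factor of ribosome biogenesis, at −0.86 (SE 0.06).

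The 10 tested genes just proximal to the interval had medians of −0.52 with DMSO and −0.52 with 5-FU. Of these, 8 of the 10 were below 0 under each treatment (backgrounds 46.9% and 54.4%). A split at *ZNF706* (101177878 to 101206193), chosen after the values were seen, separated the 14 tested genes beyond it (median −0.48 with DMSO, −0.66 with 5-FU) from the 64 between 85 Mb and *ZNF706*, which had medians of 0.35 and 0.34. *ZNF706* was at 0.05 (SE 0.08) with DMSO, and the next tested gene beyond it, *GRHL2* (101492439 to 101669726), a transcription factor of epithelial cells, at −0.91 (SE 0.09). On the short arm of chromosome 8 the median of 155 tested genes was −0.00 with DMSO and −0.02 with 5-FU, and for 13670 tested genes placed on other chromosomes the medians were 0.01 and −0.04. Neighbouring genes are not independent of each other, and no test was made along the chromosome.

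The annotated span of the members had a median of 51.0 kb and their merged exons a median of 6.42 kb, against 33.1 and 5.33 kb for 13111 coding genes tested, and the median 3' untranslated region was 1.82 kb against 1.79 kb. Size was not tested. Across the 59 members the Spearman correlation of span with the genotype difference in DMSO was −0.06, given as a description. The annotated span of 20 members overlaps a tested gene on the opposite strand, among them *EIF3H*, *UTP23* and *RAD21*, which overlap in series. Whether the counting used strand is not stated in the sources used here, so reads in such overlaps cannot be assigned to either gene with certainty. *SNTB1* and *MRPL13* both overlap *MTBP*, and *LY6K* overlaps *LNCOC1*.

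Several members are subunits of complexes whose other subunits are encoded elsewhere, and these partners were not chosen by the rule. For 20 complexes with 21 members, 189 partners outside chromosome 8 were tested. The members had a median of −0.73 with DMSO and −0.82 with 5-FU, the partners of −0.07 and −0.10, and 15 of the 21 members and 1 of the 189 partners were at least 1.5-fold lower with DMSO. The members were listed for being lower and the partners were not, so that members lie below their partners follows from the rule, here and for each complex, and is given as a description. By edgeR with an FDR under 0.05 and the minimum fold change, 2 partners were higher in *KO* cells with DMSO (background 9.1%) and 1 was lower (background 4.97%). With 5-FU 4 were higher (background 7.58%) and 4 lower (background 10.6%). At an FDR under 0.05 with no minimum fold change, 22 partners were higher and 61 lower with DMSO (backgrounds 24.5% and 21.9%), and 43 were higher and 62 lower with 5-FU (backgrounds 21.6% and 28%). Without *WT* DMSO replicate 1, 4 partners were called higher with DMSO. The number called lower was 3 without *WT* DMSO replicate 3 and 2 without *WT* DMSO replicate 2 or *KO* DMSO replicate 2. With 5-FU, 8 were called higher without *WT* 5-FU replicate 3.

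The partners called with DMSO were *EMC3*, *MRPL41* and *RFC5*. *EMC3*, a subunit of the ER membrane protein complex like *EMC2*, was upregulated from 5.32 ± 0.637 CPM (SD, n = 3) in *WT* to 14.6 ± 0.682 CPM (SD, n = 3) in *KO* cells (log2 fold change 1.46, SE 0.11, FDR 1.72e-08, edgeR), while *EMC2* was at −0.71. *MRPL41* of the mitochondrial ribosome, encoded on chromosome 9, rose by 1.01 (SE 0.09, FDR 2.44e-07, edgeR), while *MRPL13* was at −0.77. The other partners on chromosome 9 were *MED27* (0.55), *MED22* (0.49), *SMC5* (0.08), *MAPKAP1* (0.02), *MRPL50* (−0.07) and *POLE3* (−0.22). Whether position on that chromosome has a part was not tested. *RFC5*, which like *DSCC1* serves in clamp loading, was downregulated from 100.2 ± 6.02 to 59.04 ± 1.40 CPM (SD, n = 3 each; −0.76, SE 0.05, FDR 1.25e-08, edgeR). With RUVg, which is meant to remove a factor of unwanted variation, *MRPL41* was at 0.27 (FDR 0.424, edgeR) and *RFC5* at −0.53. The latter is below the minimum fold change, and neither was called. With DMSO that factor was −0.34 to −0.31 in the *WT* and −0.23 to −0.21 in the *KO* libraries. It thus separated the genotypes, so these lost calls cannot tell unwanted variation from the genotype difference.

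In the eIF3 complex, which recruits the small ribosomal subunit to mRNAs, *EIF3E* and *EIF3H* were at −0.90 and −0.81 with DMSO, while the 11 other subunits ranged from −0.34 to 0.17 with a median of −0.15. *EIF3C* among them has a near-identical copy, so its counts are uncertain. For Mediator the member was at −1.32 and 29 partners ranged from −0.57 to 0.55, and for the mitochondrial large ribosomal subunit *MRPL13* was at −0.77 while 47 partners ranged from −0.47 to 1.01. Of the silencing factors, *AGO2* was at −0.97, and its 8 partners, which include *AGO1*, *AGO3*, *AGO4* and *DICER1*, ranged from −0.12 to 0.58. In TFIID the member *TAF2* was at −0.44 and its partner *TAF5* at −0.47.

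With 5-FU, *TAF5*, *EMC3*, *EMC7* and *TNRC6C* were called higher and *NSMCE1*, *CETN2*, *UQCR11* and *MRPL53* lower in *KO* cells. *TAF5*, a subunit of TFIID, was at −0.47 (SE 0.09, FDR 0.000481, edgeR) with DMSO and at 1.19 (SE 0.11, FDR 2.11e-07, edgeR) with 5-FU. Its levels were 20.7 ± 2.51 CPM in *WT* and 14.9 ± 1.02 CPM in *KO* cells with DMSO (SD, n = 3 each), and with 5-FU 8.78 ± 0.431 CPM (SD, n = 2) and 19.995 ± 0.829 CPM (SD, n = 3). The calls of *UQCR11*, *MRPL53* and *EMC7* were lost without *WT* 5-FU replicate 2 (−0.45, −0.55 and 0.54), that of *CETN2* without *WT* 5-FU replicate 3 (−0.57), and that of *UQCR11* also without *KO* 5-FU replicate 3 (−0.54). *UQCR11* was not called either with TMM factors (−0.57), DESeq2 (−0.56), the replicate block (−0.55) or the repeated library as labelled (−0.51), nor *CETN2* with DESeq2 (−0.58) or RUVg (−0.56).

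Next, the response of the members to 5-FU was tested within each genotype, which the rule did not use, although the same libraries enter. In *WT* cells 11 of the 59 members were upregulated (background 18.5%) and 10 downregulated (background 9.38%). In *KO* cells 7 were upregulated (background 13.3%) and 8 downregulated (background 12%). With RUVg, whose factor had 98.2% of its variance between treatments, no response of a member was called in either genotype, and with the repeated library as labelled none was called in *WT* cells (by edgeR 15 higher and 16 lower at an unadjusted p under 0.05, and with RUVg 6 and 11 in *WT* and 9 and 11 in *KO* cells). The median change was −0.12 in *WT* and −0.15 in *KO* cells, against 0.03 and −0.06 for all genes tested. Called in both genotypes were 7 upregulated members, *FBXO32*, *NDRG1*, *DENND3*, *LY6K*, *SCRIB*, *PLEC* and *DGAT1*, and 5 downregulated members, *EIF3E*, *EMC2*, *DEPTOR*, *MTSS1* and *NSMCE2*. Called in *KO* cells alone were *TRIB1*, *EFR3A* and *ST3GAL1*, all lower, and in *WT* cells alone *SYBU*, *SNTB1*, *GPAA1* and *KIFC2* (higher) and *RAD21*, *MED30*, *DSCC1*, *ATAD2* and *CHRAC1* (lower). A call in 1 genotype alone does not show that the responses differ, which the interaction tests.

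Among the upregulated members, *PLEC* rose from 519.8, 515 and 616 CPM to 1331 and 1168 CPM in *WT* cells (log2 fold change 1.18, SE 0.08, FDR 1.21e-09, edgeR). In *KO* cells it rose from 473, 499.5 and 447 CPM to 796, 819 and 815 CPM (0.78, SE 0.07, FDR 6.46e-08, edgeR). Every treated library was above every untreated library of its genotype. *NDRG1* rose to 597 and 519 CPM in *WT* cells (0.89, SE 0.07, FDR 1.65e-08, edgeR). In *KO* cells it rose to 221, 226 and 219 CPM (0.90, SE 0.06, FDR 5.33e-09, edgeR), which is below its level in untreated *WT* cells.

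*FBXO32*, a ubiquitin ligase subunit known from muscle atrophy, rose from 5.49, 4.54 and 5.24 CPM to 9.87 and 10.2 CPM in *WT* cells (0.97, SE 0.16, FDR 6.57e-05, edgeR) and from 4.47, 3.02 and 3.98 CPM to 6.86, 5.98 and 8.90 CPM in *KO* cells (0.91, SE 0.16, FDR 0.000113, edgeR). *DENND3*, an exchange factor for a RAB GTPase of autophagy, rose to 53.8 and 52.8 CPM (0.96, SE 0.09, FDR 7.21e-08, edgeR) and to 26.6, 27.7 and 22.4 CPM (0.74, SE 0.08, FDR 1.28e-06, edgeR). *DGAT1* rose by 0.78 (edgeR FDR 4.76e-07, SE 0.08) in *WT* and by 0.91 (edgeR FDR 3.86e-08, SE 0.08) in *KO* cells. The rise of *SCRIB* was 0.79 (edgeR FDR 4.13e-07, SE 0.08) and 0.78 (edgeR FDR 1.67e-07, SE 0.08). *LY6K* rose to 3.84 and 2.81 CPM in *WT* cells (1.46, SE 0.32, FDR 0.00136, edgeR), and in *KO* cells it reached 1.66, 0.781 and 0.919 CPM, at least 9.56-fold above the floor of 3 counts.

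Among the downregulated members, *NSMCE2*, the SUMO ligase of SMC5/6, fell from 25.3, 28.0 and 22.4 CPM to 11.999 and 12.03 CPM in *WT* cells (−1.07, SE 0.10, FDR 1.28e-07, edgeR). In *KO* cells it fell from 12.2, 13.1 and 12.8 CPM to 6.34, 6.50 and 7.27 CPM (−0.92, SE 0.10, FDR 6.72e-07, edgeR). The untreated *KO* libraries thus were close to the treated *WT* libraries. *DEPTOR*, an inhibitor of mTOR, fell to 7.59 and 7.33 CPM in *WT* (−0.95, SE 0.13, FDR 8.18e-06, edgeR) and to 5.43, 4.91 and 5.01 CPM in *KO* cells (−0.89, SE 0.13, FDR 1.29e-05, edgeR).

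*EIF3E* fell from 831, 888 and 832 CPM to 460.2 and 552 CPM in *WT* cells (−0.75, SE 0.07, FDR 9.98e-08, edgeR) and from 463, 441 and 466 CPM to 272, 267 and 278 CPM in *KO* cells (−0.75, SE 0.06, FDR 2.28e-08, edgeR). *EMC2* fell from 51.5, 55.7 and 52.9 CPM to 29.9 and 39.5 CPM (−0.62, SE 0.10, edgeR FDR 6.31e-05) in *WT* cells and from 34.8, 32.5 and 30.6 CPM to 18.7, 21.7 and 19.3 CPM (−0.71, SE 0.10, edgeR FDR 9.03e-06) in *KO* cells. *EIF3E* and *EMC2* start next to each other on opposite strands, and both were called lower in each genotype. *MTSS1*, an actin-binding scaffold at 1.88 to 3.94 CPM in all libraries, fell by 0.67 in *KO* cells (SE 0.16, FDR 0.00207, edgeR), a call that was lost without *KO* DMSO replicate 2 (−0.57).

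*CHRAC1*, a histone-fold subunit of a nucleosome remodeling complex, fell from 58.4, 57.97 and 60.3 CPM to 30.3 and 29.9 CPM in *WT* cells (−0.97, SE 0.07, FDR 4.36e-09, edgeR). *RAD21* fell from 538, 534 and 512 CPM to 270.5 and 331 CPM in *WT* cells (−0.81, SE 0.07, FDR 5.42e-08, edgeR). In *KO* cells the changes were −0.53 (SE 0.06) and −0.49 (SE 0.06), below the minimum fold change. *TRIB1* was downregulated in *KO* cells, from 219.6, 196 and 207 CPM to 107, 114 and 110.1 CPM (−0.91, SE 0.05, FDR 3.17e-10, edgeR), and changed by −0.47 (SE 0.06) in *WT* cells.

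The 2 responses differed beyond both thresholds for 8 members. By the interaction, the change in *KO* cells minus that in *WT* cells, 4 members were higher (background 3.42%) and 4 lower (background 6.66%). The interaction also equals the genotype difference with 5-FU minus that with DMSO, and the rule used both. Its FDRs do not account for that choice. *ATAD2* (123319850 to 123416350, minus strand), a bromodomain protein of replicating chromatin, was at 339, 344 and 330.0 CPM in *WT* cells with DMSO and at 162 and 189.7 CPM with 5-FU. In *KO* cells it was at 168, 165 and 161 CPM with DMSO and at 218, 217 and 207 CPM with 5-FU. Its level thus fell in *WT* cells (−0.94, SE 0.06, FDR 3.4e-09, edgeR), changed by 0.38 (SE 0.06) in *KO* cells, and the difference was 1.32 (SE 0.09, FDR 7.66e-08, edgeR interaction).

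*DSCC1* followed the same course, with −0.84 (SE 0.07, FDR 4.33e-08, edgeR) in *WT* cells, 0.44 (SE 0.07) in *KO* cells and an interaction of 1.28 (SE 0.10, FDR 2.48e-07, edgeR). With 5-FU the *KO* libraries of *ATAD2* lay above both *WT* libraries, and those of *DSCC1* lay between them. *TBC1D31*, a protein of centriolar satellites, was at 22.9, 30.0 and 24.3 CPM and at 20.3 and 24.1 CPM in *WT* cells, and at 15.5, 15.5 and 15.0 CPM and at 20.1, 22.7 and 18.4 CPM in *KO* cells (interaction 0.63, SE 0.16, FDR 0.00822, edgeR). Its call was lost without *WT* DMSO replicate 2 (0.51), *WT* 5-FU replicate 2 (0.51) or *KO* 5-FU replicate 2 (0.54). *LY6K* was the fourth, with a rise in *KO* cells at least 3.54-fold that in *WT* cells when computed against 3 counts.

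The members with a lower response in *KO* cells were *SNTB1*, *SYBU*, *MAL2* and *KIFC2*, which share a role with 11 further members, 1 of them, *TBC1D31*, called the opposite way and the others not called. *SNTB1* rose in *WT* cells to 9.61 and 9.91 CPM (1.14, SE 0.11, FDR 1.83e-07, edgeR) and stayed at 15.4, 14.5 and 15.0 CPM in *KO* cells, so that the interaction was −1.18 (SE 0.14, FDR 2.13e-05, edgeR). *SYBU*, which links kinesin to cargo, was at 15.8, 12.5 and 14.7 CPM and at 24.0 and 24.8 CPM in *WT* cells. In *KO* cells it was at 12.4, 11.6 and 11.8 CPM and at 10.1, 9.33 and 8.90 CPM (interaction −1.10, SE 0.13, FDR 2.2e-05, edgeR). With 5-FU the genotypes of *SYBU* were thus further apart than with DMSO.

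*MAL2* changed by 0.24 (SE 0.07) in *WT* and by −0.57 (SE 0.06) in *KO* cells, and the interaction was −0.81 (SE 0.09, FDR 1.27e-05, edgeR). *KIFC2* rose in *WT* cells to 188 and 154 CPM (1.11, SE 0.08, FDR 3.46e-09, edgeR) and was at 93.5, 103 and 90.8 CPM in *KO* cells with 5-FU. Its interaction was −0.73 (SE 0.10, FDR 0.00012, edgeR), and without *WT* 5-FU replicate 2 it was −0.58, below the minimum fold change. With RUVg the interactions of *KIFC2* and *TBC1D31* were −0.30 (FDR 0.104, edgeR) and 0.37 (FDR 0.393, edgeR) and were not called. With the repeated library used as labelled, those of *ATAD2* (0.95), *DSCC1* (0.96), *TBC1D31* (0.58), *SNTB1* (−0.90), *SYBU* (−0.90) and *KIFC2* (−0.45) kept their sign and were not called.

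**Figure D1:**
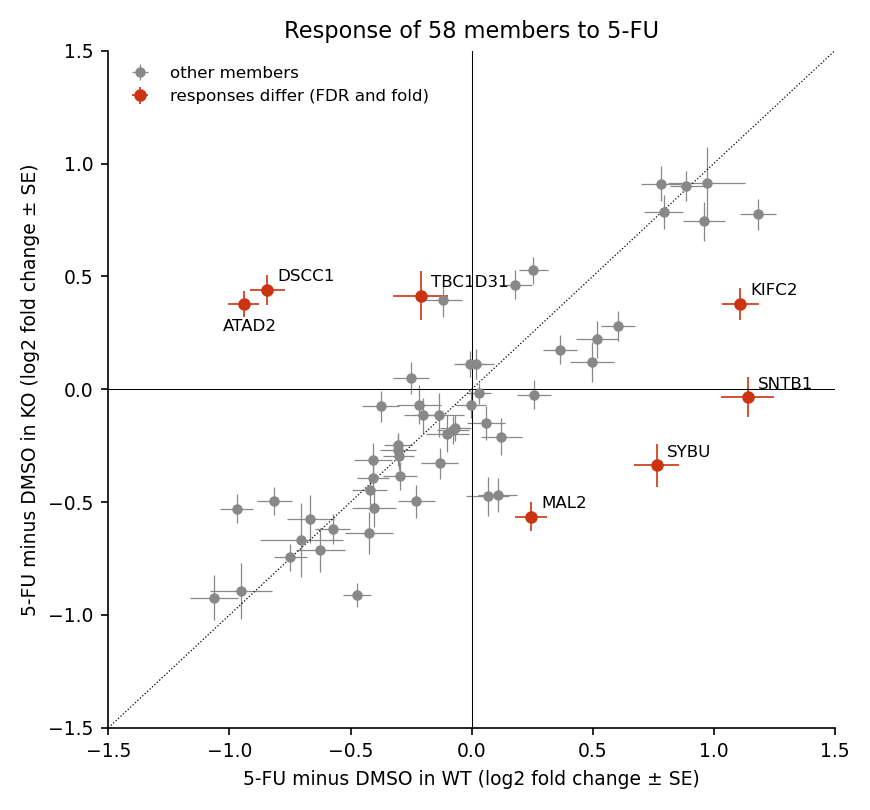
Change with 5-FU in *WT* cells (x axis) against that in *KO* cells (y axis) for 58 members, as log2 fold changes with SE bars, and a dotted line of equal change. *LY6K* is left out because it had 0 counts in untreated *KO* cells, and the 7 named members in red differ between the genotypes, with *ATAD2*, *DSCC1* and *TBC1D31* above the line and *SNTB1*, *SYBU*, *MAL2* and *KIFC2* below it.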

How the data were processed

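HCT116 cells of 2 genotypes, each with DMSO or 5-FU, were profiled by RNA-seq (NovaSeq, random-primed cDNA), and the authors mapped the reads with CLC Genomics Workbench 20.0.2 to GRCh38 (hg38). The deposited files hold counts per gene for each library, not normalized. Groups and replicate numbers were taken from the labels. The file labelled *WT* 5-FU replicate 1 repeats *WT* DMSO replicate 3, carries its column header and was left out. Positions were taken from GENCODE 44.

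Genes that reached 20 counts in any library were fitted with edgeR 4.0.16 (R 4.3.3, quasi-likelihood F test, upper-quartile factors, 1 mean per group, all 11 libraries, biological coefficient of variation 6.72%). FDR values were adjusted by Benjamini-Hochberg over 16123 genes, and a call needed an FDR under 0.05 and a fold change above 1.5. The test recovered known changes on simulated data. The members, the lists of roles, complexes and markers, and the tests were chosen with earlier results of these data known. Alternatives were TMM factors, DESeq2 1.42.0, other count filters, RUVg, a replicate block, glmTreat, no minimum fold change, the repeated library used as labelled, and leaving out each library.

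Named members were the 6 with the lowest and the 4 with the highest difference between genotypes in DMSO, up to 6 in each direction of each 5-FU response (largest changes among calls), all interaction calls, 2 genes on each side of the proximal limit, and the member of each complex with its partners called in DMSO. Others were named as examples of a role or from the counts of called genes, after their values were seen. *ATXN7* was not listed, and *UQCRB* and *MRPL15* were dropped from the partners because they lie on chromosome 8.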

Additional observations from a re-analysis of the deposited data

Results flagged for a closer look

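The response to 5-FU differed between the genotypes for 8 members by the edgeR interaction, 4 higher (background 3.42%) and 4 lower (background 6.66%) in *KO* cells. The rule used both genotype differences that the interaction compares, and its FDRs do not account for that choice. As log2 values, the change in *KO* cells minus that in *WT* cells was 1.32 for *ATAD2*, 1.28 for *DSCC1* and 0.63 for *TBC1D31*. It was −1.18 for *SNTB1*, −1.10 for *SYBU*, −0.81 for *MAL2* and −0.73 for *KIFC2*. For *LY6K*, with 0 counts in untreated *KO* cells, the response was at least 3.54-fold that of *WT* cells, computed against 3 counts per library. *WT* cells with 5-FU had 2 libraries in each of these comparisons. The calls of *KIFC2* and *TBC1D31* were lost with RUVg. With the repeated library used as labelled, those of *ATAD2*, *DSCC1*, *TBC1D31*, *SNTB1*, *SYBU* and *KIFC2* were lost.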

How the results depend on the processing

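The lower level of the members in *KO* cells kept its direction in every alternative run. The median with 5-FU moved to −0.64 with TMM factors, −0.63 with DESeq2, −0.72 with RUVg and −0.76 with the repeated library used as labelled, and ranged from −0.72 to −0.68 when 1 library was left out. The scalings moved the median of all genes by less than 0.1. The repeated library used as labelled mixes untreated cells into the 5-FU group. With it edgeR called 0 members higher and 0 lower after 5-FU in *WT* cells (15 and 16 at an unadjusted p under 0.05). The interaction called 1 higher and 2 lower, and 10 partners were lower in *KO* cells with 5-FU. The RUVg factor had 98.2% of its variance between the treatments. With it edgeR called 0 and 0 members after 5-FU in *WT* cells (6 higher and 11 lower at an unadjusted p under 0.05). In *KO* cells it called 0 and 0 (9 and 11). The signs then reversed in *WT* cells for *PLEC* (−1.60), *KIFC2* (−2.60), *DENND3* (−1.16), *NSMCE2* (0.86), *ATAD2* (0.91), *DSCC1* (1.33) and *RAD21* (1.73), and in *KO* cells for *DGAT1* (−2.27), *SCRIB* (−2.56), *PLEC* (−1.69), *NSMCE2* (0.77), *EIF3E* (1.78) and *EMC2* (2.12). Their SEs were 0.77 to 1.57 in *WT* and 0.665 to 1.39 in *KO* cells. None of these was called (lowest edgeR FDR 0.155 and 0.128), so the reversed directions are uncertain. With RUVg 6 partners were higher and 3 lower with DMSO and 7 higher with 5-FU. The RUVg factor also separated the genotypes with DMSO. With no minimum fold change 18 of the 59 members were higher and 26 lower after 5-FU in *WT* cells, and 17 and 29 in *KO* cells. By the interaction 11 were higher and 12 lower. Of all 16123 genes tested, 5143 were higher and 4569 lower in *WT*, 4286 and 5451 in *KO* cells, and 1622 and 2585 by the interaction. For the partners the numbers were 22 and 61 with DMSO (backgrounds 24.5% and 21.9%) and 43 and 62 with 5-FU (backgrounds 21.6% and 28%). With glmTreat 4 members were lower after 5-FU in *KO* cells and 2 lower by the interaction. By glmTreat 0 partners were lower in *KO* than in *WT* cells with 5-FU (1 at an unadjusted p under 0.05). Partners lower with DMSO numbered 3 with TMM factors, with DESeq2 and without a count filter, and with DESeq2 7 were higher and 2 lower with 5-FU. Leaving out 1 library gave 2 to 4 partners higher and 1 to 3 lower with DMSO and 4 to 8 higher with 5-FU. Over all single genes and alternatives, a call was lost 48 times and a direction reversed 13 times. Every fit assumes that the *WT* 5-FU libraries vary like the other groups, and a fit that leaves 1 of them has no measure of their spread. The cause of shifts not described above was not tested.

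The correlations of same-numbered libraries ran from −0.19 to 0.24. They were computed on values centred within each group, which ties them to each other in groups this small. Whether the replicate numbers pair the libraries therefore cannot be decided from them. With the replicate number as a block, 10 members were higher and 10 lower after 5-FU in *WT* cells, 7 and 8 in *KO* cells and 4 and 4 by the interaction. The headers of the *WT* 5-FU files carry other numbers, and a block with those, added after seeing the data, gave 11, 10, 7, 8, 4 and 5. Counts are lowest for *LY6K*, *MTSS1* and *FBXO32*. No molecular identifiers are described for these reads, so the floor of 3 counts covers counting error only.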
